A study of Homo sapiens with 6 samples.

Results

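The nuclear-encoded subunits of oxidative phosphorylation were examined in SW480 cells with and without extra MDM4. They were taken by name, as the genes whose symbols begin with NDUFA, NDUFB, NDUFC, NDUFS, NDUFV, UQCR, COX4I, COX5, COX6, COX7, COX8 or ATP5, leaving out NDUFAF, together with SDHA, SDHB, SDHC, SDHD and CYC1. This gave 90 of the 19225 genes listed, of which 40 were named for complex I, 4 for complex II, 10 for complex III, 17 for complex IV and 19 for complex V. No measured value enters this rule, although it was set with earlier results of these data known. The symbols are older ones in places, so that ATP5A1, ATP5B and ATP5I stand for the genes now called ATP5F1A, ATP5F1B and ATP5ME.

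SW480, an established cell line from a colon cancer, carries mutant p53, and MDM4 is best known as an inhibitor of p53. The question of the study was what MDM4 does to transcript levels in such cells. Poly(A) mRNA captured with oligo(dT) was sequenced in 6 libraries, 3 of a control group and 3 of a group transiently transfected with plasmids encoding MDM4, each numbered as replicate 1, 2 or 3. Plasmid transfection is named for both groups, while the plasmid of the control cells and the promoter that drove MDM4 are not given in the sources used here. The labels call the second group exercised, and it was taken to be MDM4, since no other group stands beside control. Nothing states that the replicates came from separate cultures, so p-values measure the spread between these libraries, which may be technical.

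Oxidative phosphorylation runs in the inner mitochondrial membrane. Complex I takes electrons from NADH and complex II takes them from succinate, both pass them to ubiquinone, and complex III and complex IV carry them on through cytochrome c to oxygen. The protons pumped on the way drive complex V, the ATP synthase. Complex II is made from nuclear genes alone, whereas the other complexes also hold subunits encoded in mitochondrial DNA. Of these 13 mitochondrial genes, 0 are listed in the table, so the nuclear genes were examined without them. Many of the nuclear genes are known to carry sites for NRF1, for the ETS factor GABP or for YY1 near their start.

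The promoters are shown to let these shared letters be seen beside the values. RefSeq start sites on GRCh38.p14 were matched for 70 of the 90 genes, and the window from 250 bases before to 50 bases after each start was searched on both strands for the NRF1 core GCATGCGC, the ETS core CCGGAAG and the YY1 core AAGATGG. The letters of the 3 cores do not overlap in the windows printed here. The NRF1 core lay in 13 windows (18.6%), against 3.27% of all 27305 promoters and 5.33% of the 10026 promoters of tested genes. The ETS core lay in 19 (27.1%), against 10.7% and 19.1%, and the YY1 core in 16 (22.9%), against 6.06% and 7.49%. A match is a run of letters and not a measured site. All 3 cores were found in 3 windows, those of ATP5I and ATP5J, subunits of the ATP synthase, and of SDHB, the iron-sulfur subunit of complex II. The window of COX6B1 is given with them because this gene is one of those called below and holds a single ETS core. Capitals mark the cores, on either strand, and each window reads in the direction of its gene.

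ATP5I (chr4:674227-674526, minus strand): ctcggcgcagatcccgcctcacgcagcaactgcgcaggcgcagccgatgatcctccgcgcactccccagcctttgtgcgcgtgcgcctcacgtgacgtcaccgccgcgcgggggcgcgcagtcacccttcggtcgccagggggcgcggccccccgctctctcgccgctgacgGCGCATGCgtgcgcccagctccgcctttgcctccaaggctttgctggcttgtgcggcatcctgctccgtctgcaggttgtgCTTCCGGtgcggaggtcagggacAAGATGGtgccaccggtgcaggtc
ATP5J (chr21:25735005-25735304, minus strand): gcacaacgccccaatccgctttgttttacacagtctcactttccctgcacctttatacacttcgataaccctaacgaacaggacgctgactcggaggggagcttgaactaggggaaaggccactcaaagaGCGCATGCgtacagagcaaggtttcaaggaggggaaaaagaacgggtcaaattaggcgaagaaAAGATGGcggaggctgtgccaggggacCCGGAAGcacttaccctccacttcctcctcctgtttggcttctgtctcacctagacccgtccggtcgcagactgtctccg
SDHB (chr1:17053983-17054282, minus strand): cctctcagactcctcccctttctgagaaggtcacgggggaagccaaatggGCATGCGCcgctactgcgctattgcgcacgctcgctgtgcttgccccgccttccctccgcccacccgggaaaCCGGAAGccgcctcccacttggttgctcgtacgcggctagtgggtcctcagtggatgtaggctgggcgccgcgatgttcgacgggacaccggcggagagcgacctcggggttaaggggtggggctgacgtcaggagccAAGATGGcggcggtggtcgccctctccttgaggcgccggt
COX6B1 (chr19:35648073-35648372, plus strand): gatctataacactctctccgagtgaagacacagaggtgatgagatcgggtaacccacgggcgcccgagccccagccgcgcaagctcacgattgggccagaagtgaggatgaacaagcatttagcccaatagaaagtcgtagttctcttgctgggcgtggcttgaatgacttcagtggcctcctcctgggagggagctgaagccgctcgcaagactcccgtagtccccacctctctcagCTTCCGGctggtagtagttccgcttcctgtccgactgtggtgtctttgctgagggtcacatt

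In ATP5I, ATP5J and SDHB the YY1 core lies downstream of the other cores or between them, and in ATP5I and SDHB it stands near the end of the window. The window of SDHA, the flavoprotein of complex II, held 0 of the 3 cores.

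Levels were given as FPKM (reads on a gene corrected for gene length and library size), and the whole-number reads behind them could be recovered for each of the 17189 genes above 0. Between 32922730 and 44563238 reads lay on genes in a library. MDM4 itself was at 5.13 to 7.09 FPKM in the control libraries and at 188, 185 and 56.3 FPKM in those of MDM4. The labels do not name MDM4, and these levels go with the reading of the second group as the one given MDM4. Colon epithelial markers (EPCAM, keratins, CDH1, CDX2 and others) summed to 4544 to 4902 FPKM without and 4221 to 4520 FPKM with extra MDM4, so that each MDM4 library lay lower. Most of this sum came from KRT8, KRT18 and KRT19, at 918 to 1876 FPKM. Of 7 markers tested, 6 had a log2 difference below 0. CDH1 went the other way, at 19.6 to 21.7 FPKM in control and 21.9 to 23.6 FPKM in MDM4 libraries. KRT20 and CEACAM5 were each under 0.6 FPKM. The 7 macrophage markers summed to 5.94 to 7.16 FPKM and the 6 fibroblast markers to 1.75 to 2.45 FPKM in replicates 1 and 2 and 3.93 to 3.94 FPKM in replicate 3. The libraries numbered 3 differed widely from the rest whichever the group, as the second comparison shows. In bulk RNA, fewer cells of a kind and less RNA per cell cannot be told apart.

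The subunits were among the more abundant mRNAs of these cells. The 90 genes took between 0.65% and 0.736% of the recovered reads. A mean of at least 0.5 FPKM, the limit for testing, was reached by 82 of them, namely 39 of complex I, 4 of complex II, 10 of complex III, 12 of complex IV and 17 of complex V. Their median level was 57.5 FPKM, against 11.2 FPKM over all 12884 genes tested. The order of the levels hardly moved from library to library, with Spearman correlations across the 82 genes between 0.988 and 0.996 for pairs of libraries. Genes are not independent replicates, so these values only describe the tables.

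ATP5B, the catalytic beta subunit of the ATP synthase, led all of them. Across the control replicates it was at 574, 561 and 640 FPKM, and across the MDM4 replicates at 538, 549 and 604 FPKM, in the order of their numbers as in all values that follow. No other member exceeded 271 FPKM in any library. The next levels belonged to COX8A, a small subunit of cytochrome c oxidase (complex IV), at a mean of 255 FPKM, to COX4I1, a regulatory subunit of the same complex, at 237 FPKM, and to ATP5A1, the alpha subunit that alternates with beta in the ATP synthase head, at 198 FPKM. UQCRC1, a core protein of complex III, stood at the same 198 FPKM. ATP5A1 ran from 190 to 208 FPKM and UQCRC1 from 178 to 224 FPKM over the 6 libraries, so these neighbours did not differ beyond their spread.

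Within complexes, the mRNA levels were spread over wide ranges. Complex II was the most even, from 34.3 FPKM for SDHC to 76.9 FPKM for SDHD, both of which encode its membrane anchors, a ratio of 2.24. Among the ubiquitous subunits of complex IV the ratio from COX8A to COX6C, at 62.9 FPKM, was 4.05. It was 12.3 in complex III, from UQCRC1 to the small subunit UQCRQ at 16.1 FPKM, and 26.0 in complex V, from ATP5B to ATP5I, a subunit of the membrane part, at 22.2 FPKM. Complex I ran from NDUFB9, an accessory subunit, at 151 FPKM to NDUFC2, another accessory subunit, at 3.52 FPKM, a ratio of 43.1. NDUFC2 shares its place in GENCODE release 29 with the read-through gene NDUFC2-KCTD14, which is listed at 0 in each library, so its low value may depend on how reads of overlapping genes were counted. NDUFB9 has a length of 351 bases in the values, the shortest of the members tested, and at such lengths the level depends strongly on the length used.

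**Figure D1:**
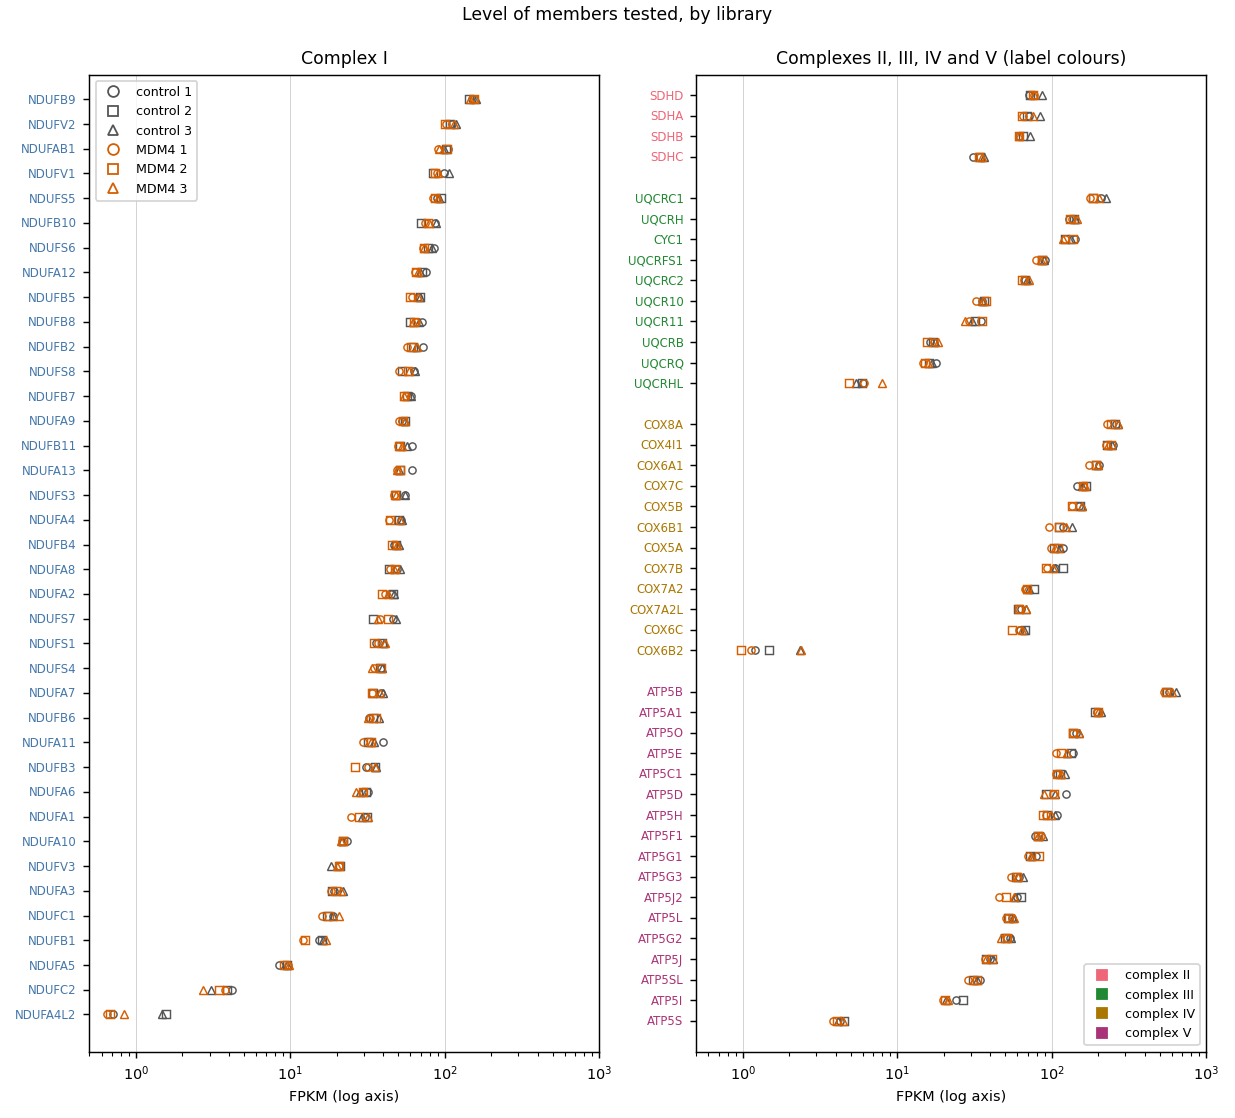
FPKM of members tested (log axis) in the 6 libraries, grouped by complex and ordered by mean level, with control libraries in grey, MDM4 libraries in orange and a symbol for each replicate number. The 6 points of most genes lie close together beside the spread between genes, ATP5B stands alone at the top, and NDUFA4L2, COX6B2 and NDUFC2 lie lowest.

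Where a subunit has alternative forms, the ubiquitous form made up nearly all of the mRNA. COX6A2 and COX7A1, the forms of heart and muscle, were at 0 FPKM and at 0.0736 to 0.397 FPKM, beside 194 FPKM for COX6A1 and 70.4 FPKM for COX7A2. COX4I2, the lung form of COX4, had at most 4 reads in a library, COX8C had at most 1 read and COX7B2 at most 1 read. COX6B2, a form known from testis, was low but measurable, at 1.21, 1.48 and 2.36 FPKM across the control replicates and 1.14, 0.97 and 2.4 FPKM across those of MDM4, from 56 to 158 reads. COX6B1 exceeded it by 51.9- to 115-fold, depending on the library. NDUFA4, now regarded as a subunit of complex IV despite its name, exceeded its relative NDUFA4L2 by 32.3- to 73.2-fold. The c ring of the ATP synthase is the exception, since ATP5G1, ATP5G2 and ATP5G3 encode the same mature protein and all were present, at means of 75.6, 51.3 and 60.03 FPKM, or 40.4%, 27.4% and 32.1% of their sum.

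The name rule also takes in genes that are not subunits. ATP5S and ATP5SL, which are tied to assembly, were at means of 4.23 and 31.9 FPKM, and COX7A2L, a factor that joins complexes III and IV into supercomplexes, was at 63.8 FPKM. UQCRHL, a copy of UQCRH without its introns, was at 4.87 to 7.99 FPKM, 18.3- to 26.9-fold below UQCRH, and reads could be shared between the copies. ATP5L2 and the read-through gene ATP5J2-PTCD1 were listed at 0. Pseudogenes named after the member are annotated in GENCODE release 29 for 45 of the 90 genes, up to 17 for COX6C, and how their reads were counted is not given in the sources used here.

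The first comparison asks whether the subunits differed between cells with extra MDM4 and control cells. None passed the test. With limma on log2(FPKM + 0.1) and Benjamini-Hochberg adjustment over all 12884 genes, 0 of the 82 members had an adjusted p under 0.05, as did 0 of all genes (0%). This fit did not call MDM4 itself either (log2 difference 4.33, limma adjusted p = 0.161), so a count of 0 does not show an absence of change. A block for the replicate number called MDM4 (limma adjusted p = 4.77e-05), with 2 of all genes and 0 members called. An unadjusted p under 0.05 was found for 5 members, all lower with MDM4, and for 222 of all genes (1.72%). Voom on the recovered reads also called 0 members, with 0 at an unadjusted p under 0.05. What the members shared was a small difference of 1 sign. The median of their log2 differences was -0.09, and 73 of 82 were below 0, while the median of all genes was -0.01 with 52.8% below 0. By complex, the median log2 difference was -0.10 in complex I (36 of 39 below 0), -0.06 in complex II (3 of 4), -0.05 in complex III (7 of 10), -0.09 in complex IV (11 of 12) and -0.07 in complex V (16 of 17). The direction of the median stayed below 0 under each scaling tried, at -0.08 with median ratio scaling, -0.06 with TPM scaling and -0.06 with quantile normalization, although 14, 19 and 19 members then lay above 0.

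In 10 members every MDM4 library was below every control library, and in 0 members every MDM4 library was above. Over all genes these shares were 3.76% and 3.1%. The members were NDUFA2, NDUFA12, NDUFB7, NDUFS3 and NDUFS6 of complex I, UQCRFS1 and UQCRQ of complex III, COX7B of complex IV, and ATP5E and ATP5J2 of complex V. Their fitted levels with MDM4 were 6.14% to 14.8% below those of the control. ATP5J2, a subunit of the membrane part of the ATP synthase, was at 59.3, 63.2 and 57.9 FPKM across the control replicates and 45.9, 50.9 and 57.3 FPKM across those of MDM4. The MDM4 library of replicate 3 lay just under its control, whereas those of replicates 1 and 2 were clearly lower. Its log2 difference was -0.23 (standard error 0.09, limma adjusted p = 1).

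ATP5E, the epsilon subunit in the stalk of the ATP synthase, was at 138, 133 and 125 FPKM against 107, 115 and 125 FPKM with MDM4, again with hardly a gap in replicate 3. Its log2 difference was -0.19 (standard error 0.08, limma adjusted p = 1). COX7B, a small subunit of complex IV, was at 104, 118 and 105 FPKM against 92.9, 91.8 and 103 FPKM. NDUFS6, an accessory subunit that is needed to complete complex I, was at 85.8, 77.6 and 82.3 FPKM against 72.7, 73.1 and 72.9 FPKM, so that its gap was present in all 3 replicates. For NDUFA2, another accessory subunit of complex I, the values were 45.2, 46.1 and 47.0 FPKM without and 41.0, 39.2 and 42.9 FPKM with MDM4. None of these differences passed the adjusted test, although the 10 genes belong to 4 of the 5 complexes.

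Of the catalytic and core subunits, NDUFS3 and UQCRFS1 were among the 10 without overlap. NDUFV1, which binds NADH and the flavin of complex I, was at 98.7, 84.2 and 107 FPKM in control cells against 89.7, 86.6 and 91.1 FPKM with MDM4. NDUFS1, which carries electrons on towards ubiquinone, had a log2 difference of -0.04. The 7 core subunits of complex I had a median log2 difference of -0.11, close to the -0.10 of its 30 accessory subunits. SDHA was at 71.2, 68.8 and 84.4 FPKM against 65.0, 64.4 and 76.1 FPKM, a log2 difference of -0.13 (95% confidence interval -0.37 to 0.11). CYC1, the cytochrome c1 of complex III, was at 142, 123 and 133 FPKM against 121, 137 and 118 FPKM. COX4I1 was at 250, 227 and 245 FPKM against 226, 243 and 230 FPKM, and COX5B, another nuclear subunit of complex IV, at 151, 153 and 157 FPKM against 136, 136 and 156 FPKM. In NDUFV1, SDHA, CYC1, COX4I1 and COX5B the libraries of the groups overlapped. ATP5A1 was the most alike of them, at 196, 190 and 208 FPKM against 195, 198 and 199 FPKM, with a log2 difference of -0.00 (95% confidence interval -0.13 to 0.13).

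Few members lay above 0. Taking the most positive of each complex at 5 FPKM or more, the log2 differences were 0.10 for UQCRHL, 0.06 for NDUFA5 (an accessory subunit of complex I), 0.04 for COX7C (a small subunit of complex IV), 0.03 for SDHC and 0.00 for ATP5F1 (the b subunit of the ATP synthase stalk). None of them separated the groups. At the other end, the most negative in their complexes were NDUFB1, an accessory subunit of complex I (-0.21), SDHA, UQCRQ (-0.16), COX7B (-0.19) and ATP5J2. The largest decrease of all members, -0.66 on the log2 scale, belonged to NDUFA4L2, which rested on 28 to 71 reads a library and whose groups overlapped, at 0.715, 1.56 and 1.49 FPKM against 0.647, 0.679 and 0.841 FPKM.

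The precision allows a bound on these changes. For 77 of the 82 members, the 95% confidence interval of the log2 difference lay between -0.5 and 0.5, that is, within a change of 1.41-fold in either direction. The 5 others were NDUFA4L2, COX6B2, UQCRHL, NDUFC2 and NDUFB1, all of them low in level. The median standard error was 0.08 in the members and 0.14 in all genes.

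The members are short genes, and short genes as a whole were lower with MDM4. The lengths implied by the FPKM values had a median of 934 bases in the members and 2936 bases in all genes tested, and 54.9% of the members but 6.16% of all genes were under 1000 bases. Over all genes, the median log2 difference was -0.09 at 200 to 1000 bases (793 genes), -0.06 at 1000 to 1500 bases, -0.04 at 1500 to 2500 bases, -0.01 at 2500 to 4000 bases and 0.06 at 4000 bases or more (4046 genes). In the shortest class the 45 members had a median of -0.10, and the other genes of that class had -0.09. In the following classes the 15, 15 and 5 members had medians of -0.08, -0.07 and -0.04, and both members of 4000 bases or more lay above 0, with a median of 0.04. Among genes under 1000 bases with at least 10 FPKM, the median was -0.11 for 44 members and -0.08 for 460 other genes, and 93.2% and 85.4% were below 0. Of the 10 members whose groups did not overlap, 8 were under 1000 bases. Colon epithelial markers also had a median log2 difference of -0.09, with 6 of the 7 tested below 0 and 0 called (limma, 1 at an unadjusted p under 0.05). The part of length or of these markers in the members' difference was not tested.

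**Figure D2:**
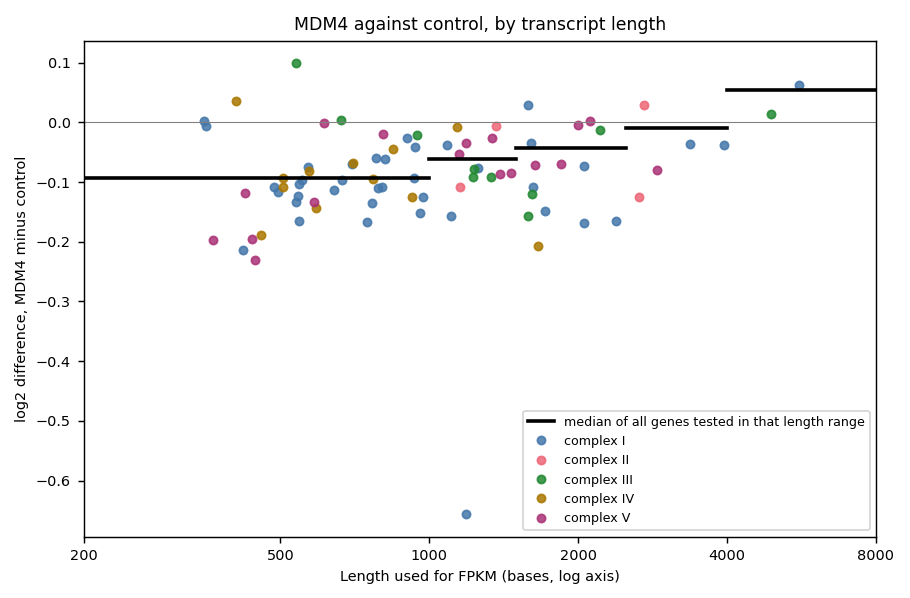
log2 difference of MDM4 minus control against the length used for FPKM (log axis) for the 82 members, coloured by complex, with black lines for the median of all genes tested in each of 5 length ranges. Most members lie below 0, around the lines, which climb from -0.09 for the shortest genes to 0.06 for the longest.

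The difference was also uneven over the replicate numbers. Between libraries of the same number, the median log2 difference of the members was -0.14 in replicate 1 (69 of 82 below 0), -0.03 in replicate 2 (49) and -0.06 in replicate 3 (64). For genes of 200 to 1000 bases as a whole the same medians were -0.17, -0.01 and -0.08. Members below 0 in all 3 pairs numbered 30 of 82 (36.6%), against 18.6% of all genes. With the replicate number as a block, again 0 members were called, while 17 members and 12.6% of all genes had an unadjusted p under 0.05, all 17 members being lower. The smallest adjusted p of a member was then 0.311 from limma, for ATP5J2. Summed over all 90 genes, the FPKM came to 6449, 6193.3 and 6636.8 across the control replicates (6426 ± 223, SD, n = 3) and to 5877.5, 6070.5 and 6309.1 across those of MDM4 (6086 ± 216, SD, n = 3), so that the groups overlapped.

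None of the following lists had a gene called between the groups, with 17 genes tested for electron carriers and quinone enzymes, 51 assembly factors, 18 regulators of mitochondrial biogenesis, 14 enzymes of the tricarboxylic acid cycle, 77 proteins of the mitochondrial ribosome and 77 of the cytosolic ribosome. Their median log2 differences were -0.05, -0.02, 0.03, -0.05, -0.06 and -0.04, and 0, 0, 0, 0, 2 and 1 genes had an unadjusted p under 0.05. The mitochondrial ribosome, at a median length of 1152 bases, had 62 of 77 genes below 0, and its most negative was MRPL53, a protein of the large subunit, at 36.2, 35.6 and 36.6 FPKM against 27.8, 28.4 and 32.4 FPKM. The largest difference among carriers was that of ETFDH, which passes electrons from fatty acid oxidation to ubiquinone, at 5.18, 4.05 and 5.12 FPKM against 6.02, 5.25 and 5.97 FPKM with MDM4 (log2 difference 0.27, limma adjusted p = 1).

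The second comparison set replicate 3 of both groups against replicates 1 and 2, with the group as a term. Replicate 3 was singled out with earlier results of these data known, so the p-values of this comparison only describe these libraries. Across the transcriptome this difference was wide, with 5685 of 12884 genes called at a limma adjusted p under 0.05 (44.1%), 3808 of them higher (29.6%) and 1877 lower (14.6%). Of the 82 members, 10 were called (12.2%), 9 higher and 1 lower in replicate 3. The difference between this share and that of all genes was not tested. The middle 50% of the members had log2 differences between 0.02 and 0.12, against -0.10 and 0.32 for all genes. The median absolute log2 difference was 0.09 in the members and 0.21 in all genes. The standard errors were smaller in the members (median 0.06) than in all genes (0.09).

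The direction of the median depended on the scaling. In the FPKM as deposited, 67 members were above 0 in replicate 3 with a median of 0.07, beside a median of 0.09 for all genes. Median ratio scaling lowered the median of all genes by 0.10 to -0.01, and that of the members to -0.03 with 28 above 0. It then called 8 members, 2 higher and 6 lower, and over all genes 2462 higher and 2958 lower. The 6 were NDUFC2, NDUFA6, NDUFV3, NDUFA13 and NDUFAB1 of complex I and UQCR11 of complex III, with log2 differences from -0.50 to -0.17 on that scale. TPM scaling called 12 members and 44.5% of all genes, and quantile normalization 15 members and 40.5% of all genes. In each, 67 members were above 0 and the median was 0.08. The 10 members called in the FPKM as deposited kept their sign under each alternative run. Called with the same sign in the FPKM as deposited and with median ratio scaling were 3 members, COX6B2 and SDHA as higher and NDUFC2 as lower. The count of calls also depended on single libraries. Without control replicate 1 or 2 it was 20 or 19, with 48.0% or 49.9% of all genes called. Without MDM4 replicate 1 or 2 it was 5 or 6, with 36.1% of all genes called each time. Leaving out replicate 3 of the control or of MDM4 leaves 1 library in that arm, so only the members' medians are given, 0.08 and 0.05. Without a trend in the variance 3 members and 37.9% of all genes were called, and with voom on the recovered reads 6 members and 45.6% of all genes.

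COX6B2 had the largest difference. The 2.36 and 2.4 FPKM of replicate 3 lay above the 0.97 to 1.48 FPKM of the other libraries in both groups, a 1.93-fold higher level (log2 difference 0.95, standard error 0.17, limma adjusted p = 0.0012). It kept its call in 14 of 15 alternatives. These levels rest on 132 and 158 reads in replicate 3. COX6B1, the ubiquitous form of the same subunit, was also higher in replicate 3, at 136 and 125 FPKM against 119 and 112 FPKM in the other libraries of the control and 96.0 and 112 FPKM in those of MDM4. Its log2 difference of 0.25 (standard error 0.06, limma adjusted p = 0.0086) was called in 12 of 16 alternatives and not with median ratio scaling.

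SDHA, which holds the site where complex II oxidises succinate, was at 84.4 and 76.1 FPKM in replicate 3 of the control and MDM4 groups. The other libraries had 71.2 and 68.8 FPKM (control) or 65.0 and 64.4 FPKM (MDM4), so that replicate 3 was highest in both groups. The log2 difference was 0.25 (standard error 0.05, limma adjusted p = 0.00248), a rise of 19.0%, and the call held in 15 of 16 alternatives. GENCODE lists 3 pseudogenes of SDHA. The other genes of complex II were not called, with log2 differences of 0.14 for SDHD, 0.10 for SDHC and 0.10 for SDHB. SDHB was at 72.5 FPKM in control replicate 3 and at 61.6 FPKM in MDM4 replicate 3, beside 61.4 to 65.3 FPKM in the other libraries.

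NDUFC2 was the 1 member called as lower in the FPKM as deposited, where 15 of 82 had a difference below 0. It was at 3.07 and 2.71 FPKM in replicate 3 and at 4.21, 3.88, 3.76 and 3.47 FPKM in the others, a log2 difference of -0.40 (standard error 0.11, limma adjusted p = 0.0121), with the limit on its counting given above. It kept its call in 13 of 15 alternatives. In complex I, NDUFB1 (log2 difference 0.27), NDUFA3 (0.18) and NDUFV2 (0.14) were called as higher. NDUFV2 is a core subunit next to NDUFV1 and holds an iron-sulfur cluster, and the other two are accessory subunits. NDUFB1 was at 16.4 and 17.1 FPKM in replicate 3, beside 15.3 and 16.2 FPKM in the other control and 12.1 and 12.5 FPKM in the other MDM4 libraries, so that most of its difference lay in the MDM4 group. NDUFA3, with a limma adjusted p = 0.0445, stood just inside the threshold, and COX8A, with 0.0502 by the same test, just outside.

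ATP5B rose in replicate 3, with a log2 difference of 0.16 (standard error 0.04, limma adjusted p = 0.00922). It was called in 12 of 16 alternatives, while its partner ATP5A1 had a log2 difference of 0.06 (limma adjusted p = 0.296). Complex III had 1 call, UQCRC1, at 224 and 204 FPKM in replicate 3 and at 178 to 208 FPKM in the others (log2 difference 0.18, limma adjusted p = 0.0243). The catalytic subunits CYC1 and UQCRFS1, the Rieske iron-sulfur protein, had log2 differences of -0.06 and 0.03 and were not called. COX7A2L was the last called, at 68.5 and 67.9 FPKM in replicate 3 and 60.5 to 63.1 FPKM in the others. With median ratio scaling, ATP5B, UQCRC1 and COX7A2L were not called.

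**Figure D3:**
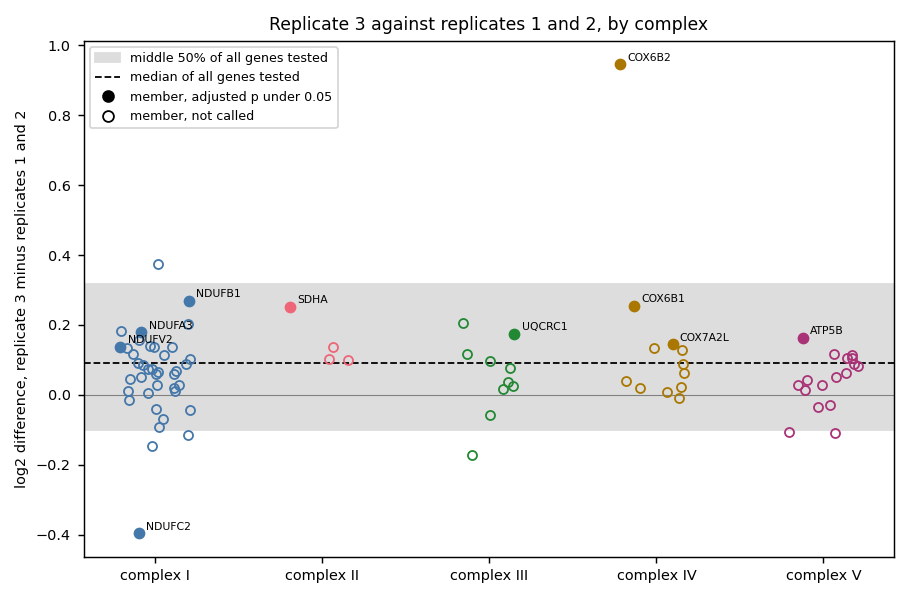
log2 difference of replicate 3 minus replicates 1 and 2 for the 82 members by complex, filled where the limma adjusted p was under 0.05. The grey band is the middle 50% of all genes tested, from -0.10 to 0.32, and the dashed line their median of 0.09. Most members lie within the band, and of those outside COX6B2 lies farthest above it and NDUFC2 farthest below it.

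COL1A1, the 1 fibroblast marker tested, was also higher in replicate 3 (log2 difference 0.92, limma adjusted p = 0.000865), and its part in the members' differences was not tested. The share of genes called rose with length, from 25.5% at 200 to 1000 bases, where 4 of 45 members were called, to 48.6% at 4000 bases or more. Among genes under 1000 bases with at least 10 FPKM, 4 of 44 members (9.09%) and 115 of 460 other genes were called. The cytosolic ribosome had 3 of 77 genes called (3.90%) and a median log2 difference of 0.01, whereas with median ratio scaling 16 were called, all lower, with a median of -0.10. In the tricarboxylic acid cycle 4 of 14 genes were called (28.6%), all higher. They were led by OGDH, the first enzyme of the oxoglutarate dehydrogenase complex, at 54.1 and 51.3 FPKM in replicate 3 and 36.1 to 42.9 FPKM in the others. With median ratio scaling 1 of these 14 was called. Assembly factors had 14 of 51 called (27.5%), 7 higher and 7 lower, and the mitochondrial ribosome 20 of 77 (26.0%), 5 higher and 15 lower. With median ratio scaling these became 18 called with 17 lower and 30 called, all lower. Electron carriers had 9 of 17 called (52.9%), 4 higher and 5 lower (with median ratio scaling 6, of which 5 lower). Of these carriers COQ7, an enzyme of ubiquinone synthesis, fell the most, from 9.21 to 11.3 FPKM in the others to 6.44 and 6.41 FPKM in replicate 3.

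Regulators of mitochondrial biogenesis were set beside the subunits. Of 18 tested, 10 were called in replicate 3 (55.6%, against 44.1% of all genes), 2 higher and 8 lower, with a median log2 difference of -0.20. With median ratio scaling 13 were called, all lower, beside 42.1% of all genes called. PPRC1, a coactivator related to PGC-1, was at 17.4 and 17.7 FPKM in replicate 3 and at 35.2 to 36.9 FPKM in the others (log2 difference -1.05, standard error 0.06, limma adjusted p = 2.23e-06). MYC fell by 44.0%, from 194 to 213 FPKM in the others to 117 and 113 FPKM. GABPB1, a subunit of the ETS factor GABP, fell by 39.2%, GABPA, its DNA-binding partner, by 18.9%, and NRF1, which binds the core of that name, fell by 24.5%. TWNK, the helicase of mitochondrial DNA, and TFB2M, a mitochondrial transcription factor, fell by 31.7% and 31.6%, and PPARGC1B, another coactivator, by 27.2%. TFB1M and POLG2 rose, by 22.2% and 19.9%. For YY1 and TFAM, the log2 differences of -0.08 and -0.14 were not called.

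The members with cores for these factors in the windows searched stood where the other members did. In replicate 3, the median log2 difference was 0.07 for the 13 members with the NRF1 core, with 0 called. It was 0.09 for the 19 with the ETS core, with 1 called, COX6B1, and 0.07 for the 16 with the YY1 core, with 2 called, UQCRC1 and NDUFA3. Among the 30 tested members with no core the median was 0.06, with 5 called as higher, SDHA among them. In MDM4 against control the same groups had medians of -0.08, -0.10, -0.05 and -0.09. No test was made between these groups of genes, and a match says nothing of whether the factor was bound.

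**Figure D4:**
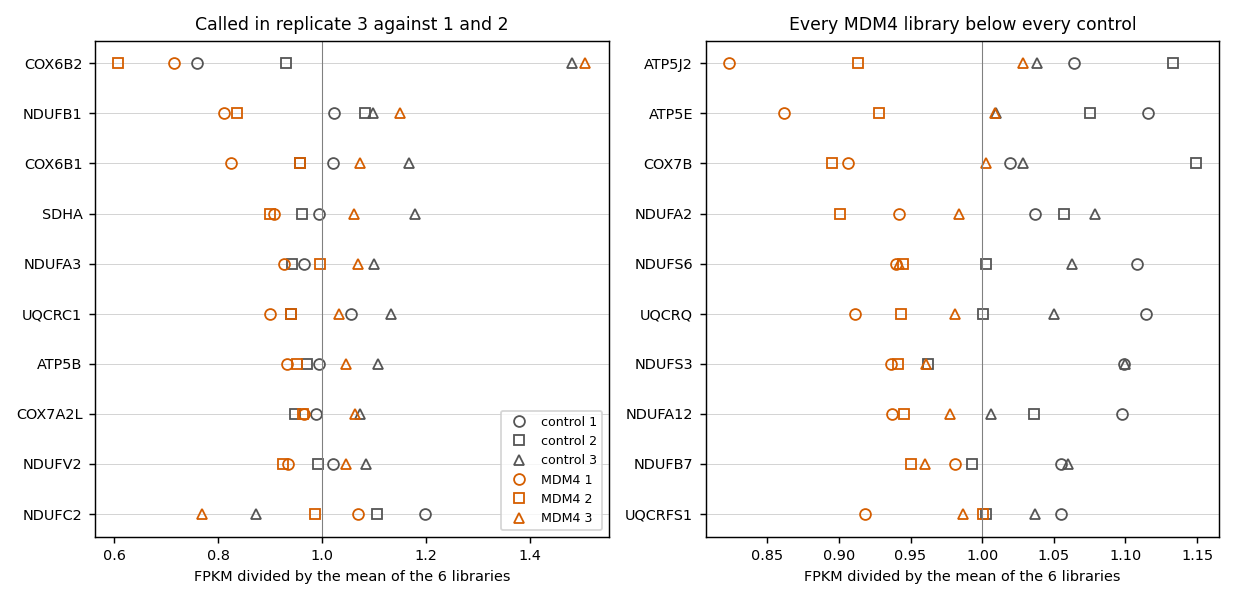
FPKM of single members divided by their mean over the 6 libraries, with control libraries in grey, MDM4 libraries in orange and a symbol for each replicate number. On the left are the 10 members called in replicate 3, where the triangle of replicate 3 lies to the right of the other symbols of its group except for NDUFC2; on the right are the 10 members whose MDM4 libraries were all below their control libraries, with the narrowest gaps in NDUFS3, UQCRFS1 and ATP5E.

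Each group holds 1 library of replicate 3, so spread could be taken only from replicates 1 and 2 within the groups. Whether the difference of replicate 3 was the same in the control and the MDM4 group was tested with an interaction term. It was called for 25 of 12884 genes (0.194%) and for 0 of the 82 members. An unadjusted p under 0.05 was found for 7 members (8.54%) and for 293 of all genes (2.27%). With voom it was found for 0 members. Within each group alone, the members' median difference of replicate 3 was 0.05 among the control and 0.08 among the MDM4 libraries, with 49 members above 0 and 9 below 0 in both. On the log2 scale, the most positive term was that of UQCRHL, 0.67, and the most negative that of NDUFS7, a core subunit of complex I near the site of ubiquinone, -0.42. NDUFS7 was at 46.0, 34.1 and 48.3 FPKM across the control replicates and at 38.2, 42.9 and 36.9 FPKM across those of MDM4, so that control replicate 2 was the low one. Without control replicate 1, each control arm holds 1 library, and MDM4 replicates 1 and 2 alone supply the spread. The terms of NDUFS7, ATP5D (the delta subunit of the ATP synthase) and ATP5I were then -0.63, -0.39 and 0.46. With all 6 libraries they were -0.42, -0.17 and 0.38. Leaving out control replicate 2 or either of MDM4 replicates 1 and 2 leaves the spread to a single pair of libraries in the same way. Calls were therefore not counted in any of these fits.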

How the data were processed

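The authors deposited FPKM values for 19225 gene symbols in 6 libraries of SW480 cells. The aligner, the counting tool, the annotation and its build are not given in the sources used here. In each library a gene's values are whole multiples of a single step, which gave whole reads (within 0.004) for 100% of the 17189 genes above 0 and the gene lengths used. Columns carry a letter and a number, read as group and replicate. log2(FPKM + 0.1) was fitted with limma 3.58.1 (lmFit, eBayes with trend, R 4.3.3) where the mean reached 0.5 FPKM (12884 genes), and p-values were adjusted over all of these by the Benjamini-Hochberg method. MDM4 against control had no covariate. The replicate 3 comparison had group as a term. Voom used the recovered reads. The fits were tested on simulated data.

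Same-numbered libraries deviated together (correlations across genes of 0.458, 0.451 and 0.783). The labels do not say that the numbers pair the samples, so the number served as a block in an alternative fit only. Replicates 1 and 2 also correlated across groups at 0.462 and 0.439 and are not told apart by this check, while replicate 3 correlated with them at -0.563 to -0.625. Deviations were taken from the group mean, so a wide difference in replicate 3 pushes replicates 1 and 2 of its group the other way. The signs of these correlations therefore follow in part from how the deviations were computed.

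Members named in the text are, per complex, the highest in level, the most positive and negative in each comparison at 5 FPKM or more, those called, the catalytic subunits and the alternative forms. From other lists, the gene with the largest difference was named. A member that the rule would name is not reported here by name. Regulators called, members with an unadjusted p under 0.05 or with separate groups, and those in the interaction were chosen after their values were seen, as were the functional groupings within complexes. The members and lists were chosen with earlier results of these data known. Alternatives were other pseudocounts, filters, scalings and variance models, the replicate block, a term for replicate 3, replicates 1 and 2 alone, and each library left out. Python 3.11.15 with scipy 1.17.1, pandas 2.3.3 and matplotlib 3.10.9 made tables and plots.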

Additional observations from a re-analysis of the deposited data

Results flagged for a closer look

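The transcript of MDM4 differed in how its replicate 3 stood against replicates 1 and 2, with log2 differences of -0.38 within the control group and -1.73 within the MDM4 group, a difference of -1.35 between the groups (standard error 0.15, limma adjusted p = 0.00166 for the interaction term). It was listed for a closer look because the difference between the groups passed the test. Replicate 3 is a single library in each group, so the spread behind that test comes from replicates 1 and 2 alone. None of the 82 members tested did so (limma, 7 or 8.54% at an unadjusted p under 0.05, against 2.27% of all genes).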

How the results depend on the processing

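With MDM4 against control, the count of called members stayed at 0 under every alternative run, and the median log2 difference kept its sign, between -0.111 and -0.054 with each library left out in turn. The replicate block gave 0 called members and a median of -0.089 and changed no call of a member in this comparison. Voom with the replicate block, chosen after the data were seen, also gave 0 called members. Over replicates 1 and 2 alone, 0 members and 69 of all genes (0.54%) were called, with 14 members at an unadjusted p under 0.05. The share of all genes at that unadjusted limit was not worked out. In replicate 3 against replicates 1 and 2, 10 members were called. The count was 3 with eBayes without trend (37.9% of all genes) and 6 with voom on recovered reads (45.6%). It was 0 when an absolute log2 difference over 1 was also asked for (327 of all genes). With a library of replicate 1 or 2 left out it was 5 to 20, with 36.1% to 49.9% of all genes called. With fewer libraries the error is less well known, and otherwise the cause was not tested. The median difference turned to -0.032 under median ratio scaling, and stayed between 0.052 and 0.082 with each library left out. For the difference of the replicate 3 shift between the groups, a library of replicate 1 or 2 was also left out, a choice made after the data were seen. The spread then rests on a single pair of libraries, so calls were not counted. Leaving out a library of replicate 3 leaves that term without an estimate. The limits are those of 3 libraries a group, in which replicate 3 weighs on each spread, and of low reads for NDUFA4L2 and COX6B2.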
